A study of Mus musculus with 5 samples.

Results

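Cells carrying transcripts of the azurophil granule proteins were picked out of 3 single-cell gene expression libraries of mouse neutrophils. A cell was taken when Elane, Mpo, Prtn3 and Ctsg together gave at least 5 raw UMIs (unique molecular identifiers, each 1 captured transcript). It also needed at least 200 detected genes, under 10% mitochondrial counts and 1 dominant hashtag. The rule found 59 cells among 25155 tagged cells, of 26406 cell barcodes in all. The libraries came from mice bearing AT3-gcsf tumours (33 of 10164 tagged cells), mice bearing AT3 tumours (18 of 7615) and naive mice (8 of 7376). All mice were female, wild type and of the C57BL/6J strain. AT3 is a transplantable mouse mammary tumour line; the labels say no more of AT3-gcsf than its name, and give no animal number, age or tumour stage. Neutrophils sorted from bone marrow, blood and lung were marked with hashtag antibodies and pooled in 1 lane per condition, so condition and lane cannot be told apart. No label ties a hashtag to a tissue, and with 1 library per condition no test between conditions was possible.

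Neutrophil granules are filled in the order in which their genes are transcribed. Azurophil (primary) granules are loaded in promyelocytes, with neutrophil elastase (Elane), proteinase 3 (Prtn3), cathepsin G (Ctsg) and the peroxidase that makes hypochlorous acid (Mpo). Lactoferrin (Ltf), cathelicidin (Camp) and neutrophilic granule protein (Ngp) follow in myelocytes, and gelatinase (Mmp9) later, while transcription of the azurophil genes stops and their proteins persist. Granulocyte-monocyte progenitors and early monocyte and basophil precursors also transcribe some azurophil genes, so these transcripts mark an early stage rather than 1 lineage.

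Some cell barcodes occurred in more than 1 library, 44 of them in both AT3 and naive, 20 in AT3-gcsf and AT3 and 20 in AT3-gcsf and naive. All 5 naive cells with 100 or more UMIs of the 4 genes were among the 44. Their barcodes were also called in AT3 with 514 to 900 UMIs, or 1.37% to 1.76% of the naive count, and 7 to 39 UMIs of the 4 genes. The hashtag rule dropped those 5 AT3 copies, which had 0 or 1 counts of their top hashtag. The barcode of the 1 AT3 cell past 100 was likewise called in naive with 749 UMIs and 9 of the 4 genes, and dropped. Without the hashtag rule the 4-gene minimum would have passed 42 AT3-gcsf, 24 AT3 and 9 naive cells; of the 9 AT3-gcsf cells dropped for want of a tag 2 held 100 or more UMIs. No barcode was thus counted in more than 1 library among the 59 cells. What makes the libraries share barcodes was not tested.

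Prtn3 and Elane lie in tandem on mouse chromosome 10 (GENCODE vM21, GRCm38). Prtn3 spans chr10:79874476-79883174 and Elane chr10:79886247-79888215, both on the + strand, with 3072 bases between them. The first 159 bases of the annotated Prtn3 span overlap Plppr3 on the opposite strand. Mpo lies at chr11:87793581-87804413 on the + strand and Ctsg at chr14:56099881-56102574 on the - strand. The 150 bases before each gene's RefSeq start site (build GRCm38.p6) are shown because the 4 genes were used together to choose the cells and differed in how far they were detected outside them. Capitals mark GAGGAA, the core bound by the myeloid factor PU.1, and AACTG, the MYB core, on either strand (CAGTT is AACTG on the other strand).
Prtn3, chr10:79879517-79879666, + strand: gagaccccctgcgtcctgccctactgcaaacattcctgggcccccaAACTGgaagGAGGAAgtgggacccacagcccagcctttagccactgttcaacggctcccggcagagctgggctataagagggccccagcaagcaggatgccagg
Elane, chr10:79886162-79886311, + strand: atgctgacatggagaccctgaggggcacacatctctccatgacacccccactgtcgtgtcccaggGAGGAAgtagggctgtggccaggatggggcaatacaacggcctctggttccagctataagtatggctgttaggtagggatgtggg
Ctsg, chr14:56102575-56102724, - strand: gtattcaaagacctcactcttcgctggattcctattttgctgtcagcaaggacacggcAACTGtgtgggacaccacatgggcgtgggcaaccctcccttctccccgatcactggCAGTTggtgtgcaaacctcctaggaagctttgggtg
Mpo, chr11:87793634-87793783, + strand: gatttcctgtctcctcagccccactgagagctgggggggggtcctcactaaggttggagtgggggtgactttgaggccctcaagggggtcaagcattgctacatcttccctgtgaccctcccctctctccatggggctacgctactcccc
In the 250 bases before the start, GAGGAA began 95 bases before the start of Prtn3 and 85 before that of Elane. It began 216 bases before that of Ctsg, and 247 and 224 before that of Mpo, outside the stretch shown. AACTG was found once before Prtn3 (104 bases), once before Mpo (165 bases), and at 92 and, on the other strand, 36 bases before Ctsg. The C/EBP-type letters TTNNGNAA were found before none of the 4, which says only that they are not in these windows. Of 32851 promoters of the same length, 23.3% held GAGGAA, 39.1% held AACTG and 36.8% held TTNNGNAA on either strand, and a match is a description of the letters, not a binding site. The RefSeq starts lie inside the GENCODE spans of Prtn3, Mpo and Elane, so those windows overlap annotated transcripts in part or whole.

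The 59 cells were not 1 population. Their summed UMIs of the 4 genes fell into 3 ranges, seen only after the counts were read, with nothing between 31 and 344. In 13 cells the sum ran from 344 to 2321 UMIs, which was 0.86% to 4.99% of all the transcripts of the cell. These 13 cells, called protease-rich here, were deep, with 21955 to 73345 UMIs and 4164 to 6997 genes each, and all 13 held all 4 transcripts. Another 6 cells held 18 to 31 UMIs, and the other 40 held 5 to 10.

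**Figure D1:**
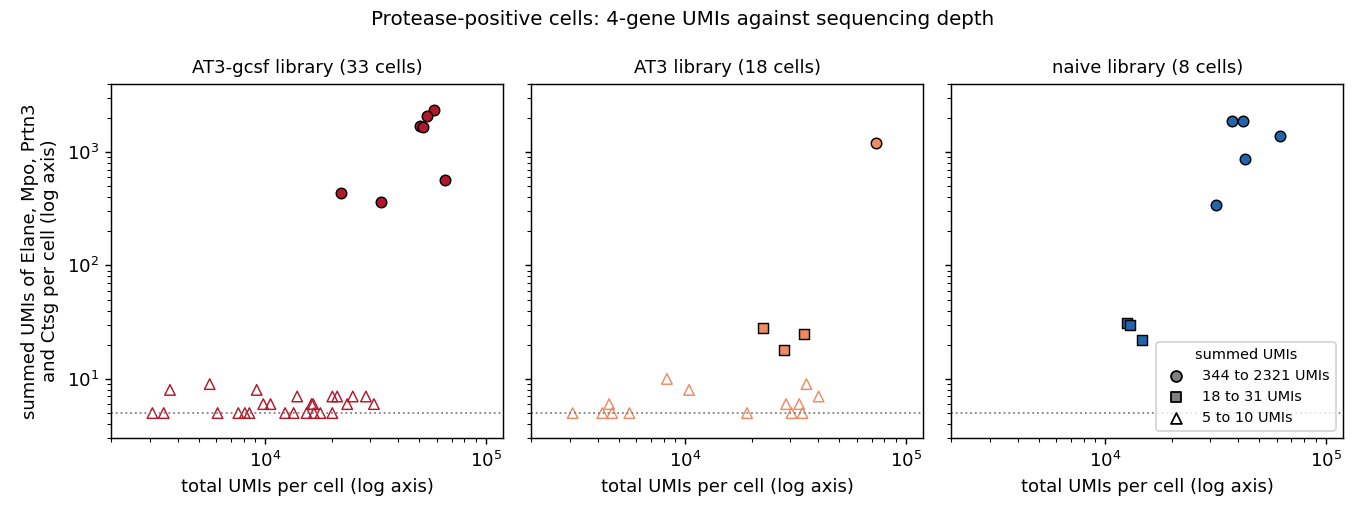
Summed UMIs of Elane, Mpo, Prtn3 and Ctsg in each of the 59 cells (y, log axis) against the total UMIs of the cell (x, log axis), for the AT3-gcsf, AT3 and naive libraries from left to right; filled circles are protease-rich cells, squares the cells with 18 to 31 UMIs, open triangles those with 5 to 10, and the dotted line the minimum of 5. The 7, 1 and 5 protease-rich cells of the 3 libraries stand apart from all others, and the naive library has no open triangle.

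The ranges were not spread alike over the libraries. The AT3-gcsf library held 7 protease-rich cells, none with 18 to 31 UMIs and 26 with 5 to 10. The AT3 library held 1, 3 and 14 in the same order, and the naive library 5, 3 and 0. Protease-positive cells by the rule were 0.325% of tagged cells in AT3-gcsf (95% interval 0.224% to 0.456%, Clopper-Pearson). In AT3 they were 0.236% (0.14% to 0.373%), and in naive 0.108% (0.0468% to 0.214%). Protease-rich cells alone were 0.0689% (0.0277% to 0.142%), 0.0131% (0.000332% to 0.0731%) and 0.0678% (0.022% to 0.158%) in the same order of libraries. For protease-rich cells the intervals of AT3-gcsf and naive overlapped widely, which does not show that their shares are equal. Intervals cover counting error only.

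Sequencing depth differed in the same order as the shares. Remaining tagged cells had a median of 7581 UMIs in AT3-gcsf, 4792 in AT3 and 2777 in naive. After every cell was thinned to 2000 UMIs, 7 of 10014 AT3-gcsf cells (0.0699%, 0.0281% to 0.144%), 1 of 7344 AT3 cells (0.0136%, 0.000345% to 0.0758%) and 7 of 5957 naive cells (0.118%, 0.0473% to 0.242%) still held 5 UMIs. Thinning left out 150, 271 and 1419 shallower cells. Just inside and just outside the minimum, 12 AT3-gcsf, 7 AT3 and 0 naive cells held exactly 5 UMIs, and 53, 9 and 0 held 4. In AT3-gcsf, all 12 cells at 5 and 50 of the 53 cells at 4 held Prtn3 alone; in AT3 these were 3 of 7 and 2 of 9.

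Within a library the cells sat mostly under 1 hashtag. They were 23 of 33 in AT3-gcsf under MHTO4, 10 of 18 in AT3 under MHTO7 and 7 of 8 in naive under MHTO4. Depth differed by hashtag too. Tagged cells had a median of 6507, 7320.5 and 8627 UMIs under MHTO3, MHTO4 and MHTO5 in AT3-gcsf. In naive it was 2267, 5400 and 2809 in the same order. In AT3 it was 9738, 4968 and 3269.5 under MHTO7, MHTO8 and MHTO10. Of cells still meeting the minimum after thinning, 7 of 7 in AT3-gcsf and 6 of 7 in naive carried MHTO4. The 1 in AT3 carried MHTO7. The part of depth in the hashtag shares was not otherwise tested. All 7 protease-rich AT3-gcsf cells carried MHTO4, which marked 35.2% of the tagged cells of that library. The AT3 protease-rich cell carried MHTO7. In naive, 4 of the 5 carried MHTO4, which marked 28.9% of tagged cells, and all 3 with 18 to 31 UMIs carried it too. The fifth, naive cell 3, carried MHTO5 at 80.1% of its hashtag counts, just past the 80% minimum. The barcode of MHTO4 is shown because 11 of the 13 protease-rich cells carried it; it is the same in both libraries, but nothing in the labels says that it marked the same tissue in both.
MHTO4: aaagcattcttcacg

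Each protease-rich cell is described by its own counts, with cells numbered within a library by their summed UMIs. Prtn3 gave 1102, 873, 656, 726, 288, 109 and 181 UMIs in AT3-gcsf cells 1 to 7, 565 in AT3 cell 1, and 588, 503, 563, 198 and 118 in naive cells 1 to 5. Elane gave 567, 481, 536, 394, 17, 65 and 135 UMIs in the AT3-gcsf cells, 136 in the AT3 cell, and 768, 759, 245, 530 and 163 in the naive cells. Elane was thus below Prtn3 in 7 of 7 AT3-gcsf cells and in the AT3 cell, and above it in 4 of 5 naive cells. Mpo gave 254, 340, 236, 222, 131, 87 and 32 UMIs in AT3-gcsf, 314 in AT3, and 235, 421, 331, 113 and 21 in naive. Ctsg gave 398, 362, 279, 333, 127, 170 and 15 in AT3-gcsf, 190 in AT3, and 286, 177, 233, 32 and 42 in naive. The Mpo and Ctsg counts of the libraries overlapped, and the lowest of both fell in cells that also held secondary granule or monocyte transcripts, described next.

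Marker genes divided the 13 protease-rich cells into 4 kinds, by limits set after their counts were seen. In 6 cells (AT3-gcsf cells 1 to 4, naive cells 1 and 2) no second set of lineage markers was present. These had the highest counts of Ms4a3, a membrane protein of granulocyte-monocyte progenitors and promyelocytes: 180, 165, 115 and 154 UMIs in AT3-gcsf cells 1 to 4, and 109 and 74 in naive cells 1 and 2. All 6 held Gfi1 and Cebpe, factors needed for granulocyte maturation in mice, and Myb. Gfi1 gave 6, 5, 6 and 1 UMIs in AT3-gcsf cells 1 to 4, against 8 and 5 in the 2 naive cells. Cebpe gave 19, 19, 34 and 26, against 6 and 4. None of the 6 held a UMI of Irf8, Ly86 or Ccr2, and Camp stayed at 0 to 4 UMIs, which the limits behind the grouping partly fixed. F13a1 gave 1 UMI in AT3-gcsf cells 1, 2 and 3 and in naive cell 2, and Ngp gave 46 in AT3-gcsf cell 4. Ms4a3, Gfi1, Cebpe and Myb, which the grouping did not use, were present in all 6 cells. Ms4a3 was also in every other protease-rich cell, and Myb in all of them but AT3-gcsf cell 7 and naive cell 5. Fcnb and Clec11a, also listed as promyelocyte genes, were low in the 6 cells, at 0 to 9 and 0 or 1 UMIs.

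In 4 cells (AT3-gcsf cell 5, AT3 cell 1, naive cells 3 and 5) the azurophil transcripts came with monocyte-lineage ones. Irf8, the factor that directs progenitors to monocytes and dendritic cells, gave 11, 14, 35 and 10 UMIs in these cells. Ly86 gave 22, 17, 12 and 11, the chemokine receptor Ccr2 22, 11, 3 and 7, and coagulation factor XIII (F13a1) 1, 28, 19 and 29. Gfi1 was found in 1 of the 4 cells and Cebpe in 1. AT3-gcsf cell 5 also held progenitor transcripts, with 24 UMIs of Cd34, 8 of the receptor kinase Flt3 and 11 of Sox4. Naive cell 5 held 418 UMIs of lysozyme (Lyz2), against 0 to 6 in the 6 cells without a second lineage. Naive cell 3 had a low dominant-hashtag share, 80.1%, against 97.8% in AT3-gcsf cell 5, 97.9% in AT3 cell 1 and 95.3% in naive cell 5. The part of that low share in the mixed markers of naive cell 3 was not tested.

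AT3-gcsf cell 6 was the only protease-rich cell with basophil and mast cell transcripts, with 254 UMIs of the protease Prss34, 221 of Mcpt8 and 81 of carboxypeptidase A3 (Cpa3). These genes were at 0 to 2 UMIs in each of the other 12. AT3-gcsf cell 7 and naive cell 4 held secondary granule transcripts: Camp gave 683 and 2266 UMIs, Ngp 748 and 419, and Ltf 97 and 2. Cebpe was 26 and 45 in them, and S100a8, a calcium-binding protein abundant in maturing neutrophils, 3806 and 4553. Both granule programs were thus counted in the same droplets. Scrublet, a doublet caller, marked none of the 13. It marked 1.12%, 2.6% and 0.651% of tagged cells in AT3-gcsf, AT3 and naive. Of the barcodes that failed the hashtag rule, by mixed or too few hashtag counts, it marked 43.6%, 36.6% and 35.8%. Since it left most of those unmarked, its calls cannot decide whether a droplet with mixed markers held 1 cell.

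**Figure D2:**
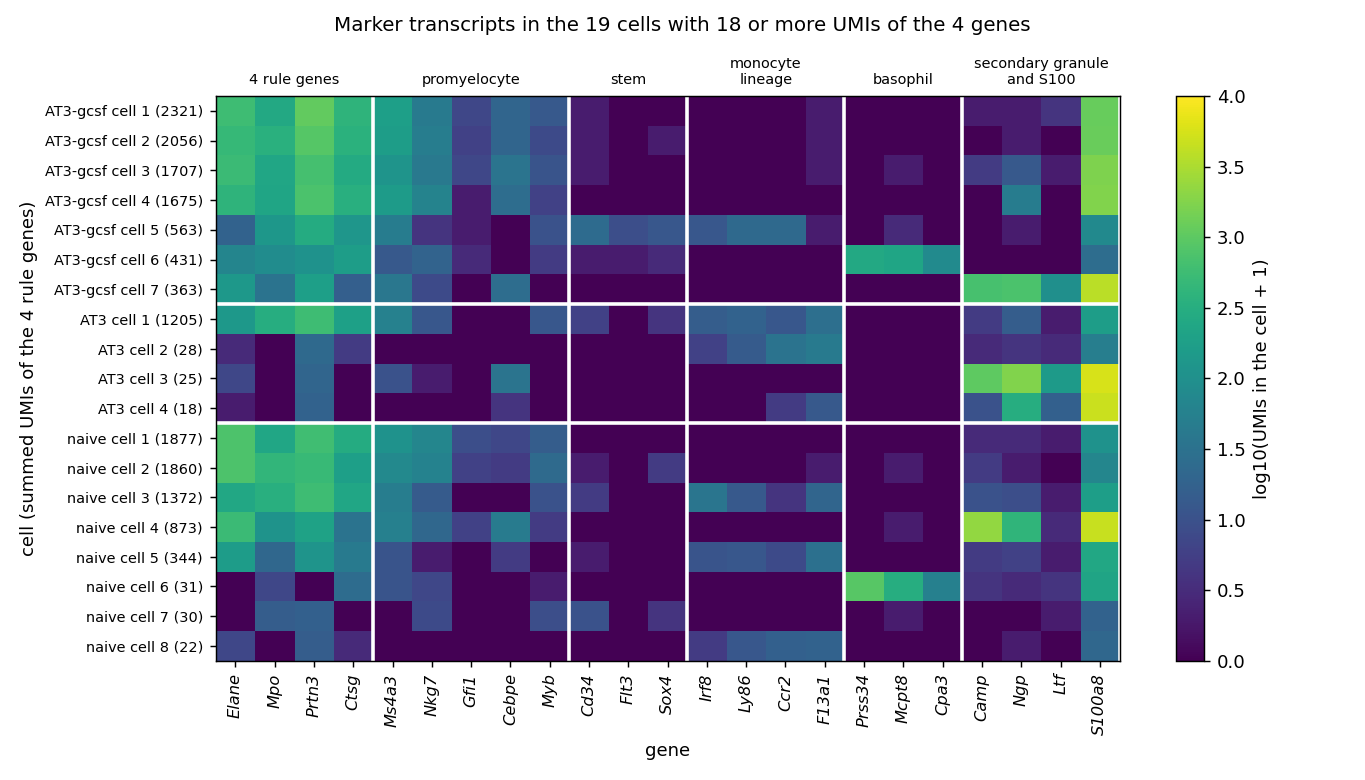
UMIs of marker genes (columns, grouped by role) in the 19 cells with 18 or more UMIs of the 4 rule genes (rows, AT3-gcsf, AT3 and naive from the top, summed UMIs in brackets), coloured by log10 of UMIs plus 1. The basophil columns are bright in AT3-gcsf cell 6 and naive cell 6 alone, and the monocyte columns in AT3-gcsf cell 5, AT3 cells 1 and 2 and naive cells 3, 5 and 8.

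The 6 cells with 18 to 31 UMIs were as mixed. Naive cell 6 held 907 UMIs of Prss34, 311 of Mcpt8 and 55 of Cpa3, with 6 of Mpo, 25 of Ctsg and none of Elane or Prtn3. Naive cell 7 held 14 UMIs of Mpo and 16 of Prtn3, with 9 of Cd34, 8 of Myb and 7 of the granule membrane protein Nkg7. AT3 cell 2 and naive cell 8 held Ccr2 (32 and 16 UMIs), F13a1 (44 and 17) and Lyz2 (366 and 268), as monocytes do. AT3 cell 3 held 1016 UMIs of Camp, 1772 of Ngp and 5712 of S100a8, beside 19 of Prtn3 and 6 of Elane. AT3 cell 4 held 4805 UMIs of S100a8 and 310 of Ngp, with 12 of F13a1. Only 1 of these 6 cells, naive cell 7, was without secondary granule, monocyte or basophil transcripts at such counts.

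Nearly all of the 40 cells with 5 to 10 UMIs carried transcripts of maturing or mature neutrophils. Csf3r, the receptor for the cytokine G-CSF, was found in 40 of 40, the chemokine receptor Cxcr2 in 37 and S100a8 in 40, while Ms4a3 was found in 10 and Nkg7 in 5. Every protease-rich cell also held Csf3r (1 to 11 UMIs) and S100a8 (26 to 4553), so their presence alone did not set the 40 apart. S100a8 with S100a9 took a median of 25.1% of their UMIs in AT3-gcsf and 34.3% in AT3. In AT3-gcsf, 25 of 26 held Prtn3 and none of the other 3 genes: their sum was 155 UMIs of Prtn3, 1 of Elane, 0 of Mpo and 0 of Ctsg. The 1 exception, AT3-gcsf cell 14, held 21 UMIs of Ccr2 and 12 of F13a1, and 49 of S100a8. With 250 UMIs of Lyz2, 1 of Csf3r and 0 of Cxcr2, that cell carried monocyte-lineage rather than mature neutrophil transcripts. Of the 26, 7 held at least 100 UMIs of Camp, Ltf and Ngp together.

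In AT3 the 14 such cells split evenly. In 7 cells Prtn3 was the only rule gene, at 5 to 9 UMIs, and all 7 held 2246 to 3718 UMIs of Camp, Ltf and Ngp together and the proliferation gene Mki67. These 7 were deep, at 19059 to 40279 UMIs, and 6 of them held Ms4a3. The other 7 held mixtures of the 4 genes (11 UMIs of Elane, 16 of Mpo and 4 of Ctsg in all). They were shallow, at 3079 to 10394 UMIs, held 2 to 35 UMIs of Camp, Ltf and Ngp together, and had no Mki67. Depth moved with this split, and its part in it was not tested.

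Prtn3 behaved apart from the other 3 genes in the remaining cells, those under the minimum. There it was at 31.5 CPM (UMIs of the gene scaled to a common total) in AT3-gcsf (exact Poisson 95% interval 30.3 to 32.7), 10.9 in AT3 (10 to 11.8) and 3.82 in naive (3.14 to 4.59). Elane was at 0.458 CPM (0.329 to 0.622), 1.53 (1.21 to 1.9) and 1.4 (1 to 1.9) in the same order, Mpo at 0.525, 1.99 and 0.955, and Ctsg at 0.414, 0.908 and 0.443. Prtn3 was thus highest in AT3-gcsf, where Elane was lowest. Because the rule took out cells by these genes, the levels are a description.

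**Figure D3:**
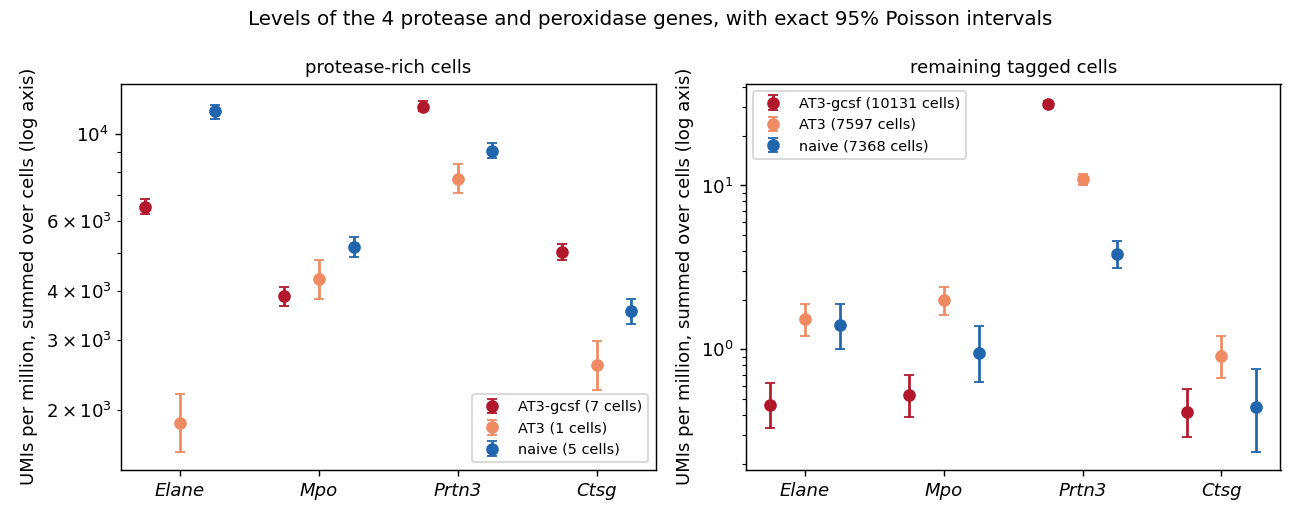
Level of each of the 4 genes (CPM, summed over cells, log axes of different range) in protease-rich cells (left) and remaining tagged cells (right), for the AT3-gcsf, AT3 and naive libraries from left to right within each gene; bars are exact 95% Poisson intervals, for counting error only. In the remaining cells Prtn3 is at 31.5, 10.9 and 3.82 CPM, while Elane, Mpo and Ctsg are all under 2.

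Prtn3 made up 95.8% of the UMIs of the 4 genes in remaining AT3-gcsf cells (95% to 96.5%), against 43.2% in the protease-rich cells of that library (42.1% to 44.2%). The values were 71.1% (67.8% to 74.2%) against 46.9% (44% to 49.8%) in AT3, and 57.7% (50.4% to 64.8%) against 31.1% (30% to 32.3%) in naive. The rule divided the cells by these same counts, and the part of free RNA in the Prtn3 UMIs was not tested. At a fixed 2000 UMIs per cell, 6.55% of AT3-gcsf cells held Prtn3 (6.07% to 7.05%), 2.41% of AT3 cells (2.07% to 2.79%) and 1.21% of naive cells (0.947% to 1.52%). Unthinned shares were 20.7%, 6.55% and 1.55%. Elane was then in 0.23%, 0.395% and 0.403% of cells (unthinned 0.482%, 1.02% and 0.637%), in the same order.

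Within AT3-gcsf the Prtn3 level of remaining cells was 29.1 CPM under MHTO3, 45.5 under MHTO4, the hashtag of all 7 protease-rich cells, and 21 under MHTO5. In naive the order differed, with 6.54, 2.01 and 4.35 CPM under MHTO3, MHTO4 and MHTO5. By maturity markers, remaining AT3-gcsf cells with Camp, Ltf and Ngp at 2% or more of their UMIs had 23.7 CPM (19.9 to 28; 252 cells), and the others 32 (30.8 to 33.3; 9879 cells). In naive, 953 such cells had 1.04 CPM (0.478 to 1.98), against 4.97 (4.06 to 6.03) in the 6415 others. Most of those 953 carried MHTO4, and within MHTO4 of naive the levels were 1.07 and 3.58 CPM. Prss57, a further azurophil serine protease, differed less across libraries than Prtn3 in remaining cells. It was at 7.68 CPM in AT3-gcsf (7.12 to 8.28), 5.76 in AT3 (5.12 to 6.45) and 6.21 in naive.

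Gene by gene, summed UMIs of the cells were set against those of the remaining cells of the same library. The contrast is descriptive, since the rule chose the cells on the same counts. A gene was called at a log2 ratio of 1 or more in size after adding 5 CPM to both sides. It was tested when either side reached the CPM minimum, so a gene low on 1 side could pass only through the other. Over all 33 AT3-gcsf cells, 1636 of 4669 genes at 20 CPM or more were higher (35%) and 474 lower (10.2%). With TMM scaling the log2 ratios shifted by -0.86, and 860 genes were higher and 1639 lower. TMM scaling was applied to the 33 cells only, not to the protease-rich cells alone. The 7 protease-rich cells gave 335816 of the 703029 UMIs of the 33 cells, so the 7 and the 26 others were also taken separately, an addition made after the data were seen, with a minimum of 100 CPM for the sums over few cells. The 7 protease-rich AT3-gcsf cells had 979 of 1797 genes at 100 CPM or more higher (54.5%) and 446 lower (24.8%). The 5 protease-rich naive cells had 824 of 1936 higher (42.6%) and 674 lower (34.8%). Of 1517 genes compared in both libraries, 702 were higher in both (46.3%) and 357 lower in both (23.5%). In the 26 AT3-gcsf cells with 5 to 10 UMIs, 138 of 3631 genes were higher (3.8%) and 176 lower (4.85%).

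Among the genes highest in the 33 AT3-gcsf cells outside the rule, Ms4a3 led with a log2 ratio of 7.53. It was at 2120 CPM in the protease-rich cells of AT3-gcsf (1960 to 2280), 777 in that of AT3 and 1360 in those of naive (1210 to 1530), against 0.548, 1.64 and 1.84 CPM in the remaining cells. Nkg7 was at 658 CPM in protease-rich AT3-gcsf cells and 746 in protease-rich naive cells, against 0.615 and 10.4 in remaining cells. Prss34 and Mcpt8, at log2 ratios of 6.17 and 5.98, rested on AT3-gcsf cell 6: Prss34 had 254 UMIs in that library's 33 cells, all in that cell. Of the 224 UMIs of Mcpt8, 221 were in it. The rest of the 12 were genes of division and protein handling: Sdf2l1, an ER cochaperone (5.80), Dut (5.69), Pclaf (5.48), Rrm2 (5.35), Ube2c (5.17), Stmn1 (5.09), the mitochondrial protein C1qbp (4.99) and Cks1b (4.96).

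Beyond the 4 genes used by the rule, the azurophil list was called about as often as all genes in AT3-gcsf. Without the 4, 5 of 8 tested genes were higher in protease-rich AT3-gcsf cells (median log2 ratio 2.80) and 6 of 8 in naive ones (2.02), beside 54.5% and 42.6% of all tested genes higher and medians over all tested genes of 1.31 and 0.41. The higher ones in both were Prss57, Cst7, Serpinb1a, Cd63 and Nkg7. Cathepsin C (Ctsc), which activates these serine proteases, was at 41.7 CPM against 105 in AT3-gcsf, and at 134 against 24.4 in naive. The naive level rested on cells 3 and 5, those with monocyte-lineage transcripts, which held 9 and 15 UMIs of Ctsc, while naive cells 1, 2 and 4 held 2, 3 and 0. Lyz2 was lower in both, at 0 to 51 UMIs in the AT3-gcsf cells. Of the promyelocyte list, 7 of 10 tested genes were higher in AT3-gcsf (median 3.23) and 6 of 10 in naive (3.42). Igfbp4 was at 194 CPM against 2.05 in AT3-gcsf, and at 207 against 12.9 in naive. Hdc and Mgst1, of the same list, were lower in both. Of the stem and progenitor list no gene reached 100 CPM in either; Cd34 was at 83.4 CPM against 3.42 in AT3-gcsf, mostly from cell 5.

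Cell division transcripts were higher in the summed counts, though not in every cell. All 17 genes of the S phase list summed to 2880 CPM in protease-rich AT3-gcsf cells, against 49.3 in remaining cells. In naive the sums were 2450 and 156. Its tested genes, 9 in AT3-gcsf (median 4.79) and 10 in naive (3.98), were all higher. They passed the 100 CPM minimum almost only through the protease-rich cells, so that count was largely fixed. The G2M list summed to 5320 CPM against 757, and to 4890 against 1510. Of its tested genes 13 of 13 (4.50) and 9 of 10 (3.28) were higher, beside 54.5% and 42.6% of all tested genes. Rrm2, a subunit of ribonucleotide reductase, was at 435 CPM against 0.335 in AT3-gcsf, and at 286 against 11.3 in naive. Top2a was found in 13 of 13 protease-rich cells, Pcna in 13, Mcm5 in 13 and Mki67 in 11, all but AT3-gcsf cell 6 and naive cell 2. Among the 6 cells without a second lineage, the G2M list took 0.401% to 0.548% of UMIs in AT3-gcsf cells 1 to 4, and 0.157% and 0.0687% in naive cells 1 and 2. It took 0.0757% in remaining AT3-gcsf cells and 0.151% in remaining naive cells. Naive cell 1 was thus level with the remaining cells, and naive cell 2 below them. Naive cells 3, 4 and 5, with monocyte-lineage or Camp transcripts, had 0.682%, 0.943% and 0.448%. The S phase list took 0.265%, 0.325%, 0.333% and 0.315% in AT3-gcsf cells 1 to 4, and 0.332% and 0.156% in naive cells 1 and 2, which overlap. Remaining cells had 0.00493% in AT3-gcsf and 0.0156% in naive. Cells of 1 library are not replicates of a condition, so neither list compares the conditions.

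Genes for building and exporting protein were higher as well. Beside them, 54.5% of all tested genes were higher in protease-rich AT3-gcsf cells (median 1.31) and 42.6% in naive ones (0.41). All 19 tested genes of the ER folding and export list were higher in protease-rich AT3-gcsf cells (median 3.97), and all 18 in naive ones (2.62). Its 20 genes summed to 14200 CPM against 886 in AT3-gcsf, and to 8130 against 1360 in naive. Sdf2l1 was at 840 CPM against 2.50 in AT3-gcsf and at 456 against 8.97 in naive. Manf, a secreted ER stress protein, was at 1180 against 15.1 and at 355 against 27. The 16 genes of the nucleolus and ribosome biogenesis list summed to 3990 CPM against 107 in AT3-gcsf, and to 2940 against 268 in naive. Its 8 (4.25) and 5 (3.45) tested genes were all higher. Nucleophosmin (Npm1) was at 1600 CPM against 39.3, and at 1320 against 83.3. The 15 genes of the nucleotide synthesis list summed to 1390 CPM against 40.6, and to 976 against 97.8. All 3 tested genes were higher in each library. In both lists tested genes passed the minimum mostly or only through the protease-rich cells, so these counts were largely fixed. For oxidative phosphorylation 13 of 16 (2.22) and 12 of 16 (1.42) were higher, with cytochrome c (Cycs) at 744 CPM against 24.4, and at 649 against 55.5. Glycolysis genes stood near the median of all genes in naive and below it in AT3-gcsf, with 2 of 11 higher in AT3-gcsf (0.25) and 4 of 11 in naive (0.48).

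**Figure D4:**
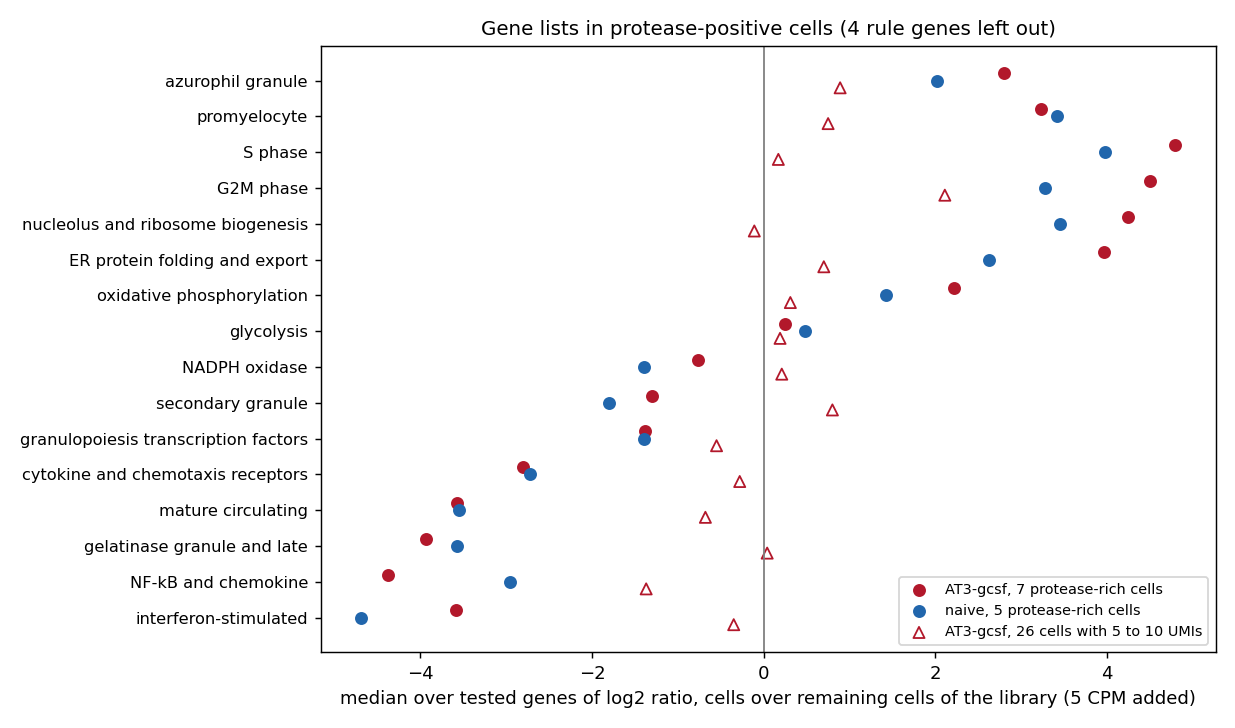
Median log2 ratio (x) over the tested genes of each list (y, 4 rule genes left out) for 7 protease-rich AT3-gcsf cells (filled red), 5 protease-rich naive cells (filled blue) and 26 AT3-gcsf cells with 5 to 10 UMIs (open triangles), each over the remaining cells of the same library. Filled points lie far from 0 on both sides, such as S phase at 4.79 and 3.98 and mature circulating at -3.57 and -3.55, while open triangles lie nearer 0. Genes were tested when either side reached the CPM minimum, which partly fixes the sign for lists low on 1 side.

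Genes of later stages were lower, beside 24.8% of all tested genes lower in AT3-gcsf and 34.8% in naive. Of the mature circulating list, 15 of 15 tested genes were lower in protease-rich AT3-gcsf cells (median -3.57) and 16 of 16 in naive ones (-3.55). Csf3r was at 59.6 CPM against 764 in AT3-gcsf, and at 115 against 1480 in naive. Il1b, the cytokine interleukin 1 beta, was at 59.6 against 4290, and at 239 against 4690. The gelatinase granule and late list was lower for 10 of 10 genes (-3.94) and 11 of 11 (-3.58), with Retnlg at 149 CPM against 15100 and at 322 against 12700. Of the cytokine and chemotaxis receptors, 10 of 10 were lower (-2.80) and 8 of 10 (-2.72), with the interferon gamma receptor Ifngr1 the 1 higher in naive. Ccr1 was at 29.8 against 692 and at 32.2 against 663. The whole NF-kB and chemokine list summed to 241 CPM against 3850, and to 525 against 5080. Of its tested genes 6 of 6 (-4.38) and 9 of 9 (-2.96) were lower. The whole interferon-stimulated list summed to 244 CPM against 922, and to 180 against 1750. Of its tested genes 4 of 5 (-3.59) and 6 of 6 (-4.69) were lower. Genes of these lists passed the minimum mostly through the remaining cells, so the counts were largely fixed.

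Secondary granule genes were mostly lower. In protease-rich AT3-gcsf cells 1 of 12 tested genes was higher, Camp, and 7 were lower (median -1.30); in naive ones 0 of 13 were higher and 10 lower (-1.80). Ltf was at 301 CPM against 836 in AT3-gcsf, and at 23 against 3020 in naive. The Camp levels, 2050 CPM against 530 in AT3-gcsf and 10500 against 9520 in naive, came almost wholly from AT3-gcsf cell 7 and naive cell 4. Of the granulopoiesis transcription factors 3 of 9 were higher and 6 lower in AT3-gcsf, and 2 of 9 higher and 6 lower in naive. Myb was at 140 CPM against 0.525 and at 230 against 12.3, and Lmo2 at 220 against 7.94 and at 120 against 36.2, while Cebpb, Cebpd, Spi1, Klf2, Junb and Fos were lower in both. Cebpe was at 369 CPM against 18.9 in AT3-gcsf and at 272 against 137 in naive, a log2 ratio of 0.97, just under the limit. The naive level came mostly from cell 4, with 45 UMIs of Cebpe, against 6, 4, 0 and 4 in naive cells 1, 2, 3 and 5. Gfi1 stood at 62.5 CPM against 0.0559 in AT3-gcsf and at 82.9 against 3.92 in naive, under the 100 CPM minimum.

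The 26 AT3-gcsf cells with 5 to 10 UMIs had a different pattern when summed, with 3.8% of all tested genes higher and 4.85% lower. Of the secondary granule list 6 of 13 tested genes were higher (median 0.80, all tested genes -0.0433), among them Ltf at 3910 CPM against 836 and Ngp at 14500 against 2890. These levels rested on few cells. Camp, Ltf and Ngp together gave 258 to 1815 UMIs in 7 cells and 0 to 77 in the other 19. The 7 held 12295 to 31119 UMIs in all and the 19 held 3071 to 20141. The 26 had a median of 13689.5 UMIs, against 7581 in remaining cells. The part of depth was not tested. Of the NF-kB and chemokine list 8 of 12 were lower (-1.37), with Cxcl2 at 496 CPM against 2020. Of the mature circulating list 3 of 16 were lower (-0.68), and of the gelatinase list 0 of 11 were higher or lower (0.04). Only 1 gene of the S phase list reached 20 CPM, and Dut, Mcm3, Cd34 and Gfi1 had 0 UMIs in these 26 cells. Of the G2M list, however, 3 of 5 tested genes were higher (2.11), namely Ube2c, Ccnb2 and Cenpa. These calls leaned on few cells. AT3-gcsf cell 13 held 12 UMIs of Ube2c, and none of the others more than 1. The G2M list took 1.07% of UMIs in cell 13 and 0.401% in cell 12, against 0.0364% to 0.195% in the others. Mki67 was found in 2 of the 26. Of the ER folding and export list 5 of 17 were higher (0.70), beside 3.8% of all tested genes. No tested gene of either list was lower. Saa3, made in acute inflammation, was at 681 CPM in these 26 and 65.5 in the protease-rich cells, against 3870 in remaining cells.

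The lowest genes over the 33 AT3-gcsf cells were Scgb1a1, the secretory protein of airway club cells (-5.34), Ccl4 (-3.47), Saa3 (-3.31), Stfa2 (-2.95), Fosb (-2.90), the lung surfactant gene Sftpc (-2.89), Cxcl2 (-2.83) and Plk2 (-2.78). Scgb1a1 was at 20.8 CPM in protease-rich AT3-gcsf cells, 27.3 in that of AT3 and 50.7 in those of naive, against 891, 2730 and 2990 in the remaining cells. Set against only those remaining AT3-gcsf cells that were rich in Camp, Ltf and Ngp, the log2 ratios over the 33 cells turned to 0.43 for Scgb1a1, 0.91 for Saa3, 0.22 for Sftpc, 0.90 for Il1b and 0.45 for Csf3r. Tags are not tied to tissue, and the part of lung RNA in the contrast was not tested. Of lists of other cell types in protease-rich naive cells, 4 of 4 tested erythroid genes, all globins, and 4 of 5 dendritic cell genes (Cd74, H2-Aa, H2-Ab1 and H2-Eb1) were lower. The 1 tested macrophage gene and the 1 tested B and plasma cell gene were neither higher nor lower, and the 1 tested T and NK cell gene, Nkg7, was higher. The monocyte lineage list had 0 of 2 tested genes higher in protease-rich AT3-gcsf cells and 4 of 6 in naive ones (Irf8, Ly86, F13a1 and Ms4a6c), where 2 of the 5 cells held such transcripts.

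S100a8 and S100a9 differed between the 6 cells without a second lineage. S100a8 gave 1168, 1204, 1701 and 1765 UMIs in AT3-gcsf cells 1 to 4, against 109 and 67 in naive cells 1 and 2. S100a9 gave 636, 527, 1139 and 1743, against 76 and 50. Relative to the remaining cells of its library, the S100a8 level was 14.3% to 24.4% in the 4 AT3-gcsf cells and 1.45% to 2.64% in the 2 naive cells. For Retnlg, another abundant neutrophil transcript, it was 0.528% to 1.28% and 0.374% to 1.89%. AT3-gcsf cells 5 and 6, of the same library but with other lineage markers, had S100a8 at 0.853% and 0.847% of its remaining level. With 4 cells against 2 from 1 library each, and the genes chosen after their values were seen, the difference has no replicate check.

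The interferon-inducible membrane protein Ifitm1 gave 38, 140, 116 and 52 UMIs in AT3-gcsf cells 1 to 4, against 2 and 3 in naive cells 1 and 2. Relative to remaining cells of the same library, at 22700 CPM in AT3-gcsf and 722 in naive, these were 2.86% to 11.3% and 7.37% to 9.85%, which overlap. Wfdc17 gave 18, 18, 26 and 21 UMIs, against 0 and 0, with remaining cells at 25700 and 548 CPM. The ER folding and export list took 1.62%, 1.80%, 1.77% and 1.45% of UMIs in the AT3-gcsf cells, against 0.885% and 1.20% in the naive cells, and 0.0886% and 0.136% in the remaining cells of AT3-gcsf and naive. These are values of single cells, not replicates of a condition.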

How the data were processed

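The authors deposited raw UMI counts per gene and barcode, made on mm10 with bcl2fastq 2.20.0.422 and Cell Ranger 4.0.0, per the submitters' processing notes, and raw hashtag counts, whose counting program the labels do not name. Each of the 3 libraries was joined to the hashtag file that labelled 94.1% to 97.4% of its barcodes, against at most 0.672% in any other. A cell was tagged when its top hashtag held at least 80% and 20 counts. UMIs were summed per library over the cells and over remaining cells (99703525, 54424062 and 32089597 UMIs in all for AT3-gcsf, AT3 and naive), with exact intervals (scipy 1.17.1). Doublets were marked with Scrublet (scanpy 1.11.5, expected rate 8%) only as an alternative, as were TMM factors (edgeR 4.0.16). Thinning used seed 42. The contrast was tested on simulated data. Named genes were the 12 highest and 8 lowest over the AT3-gcsf cells, the 4 of largest size per list, and genes marking single cells. The cells and the 29 gene lists were chosen with earlier results of these data known, and the 3 ranges and cell kinds after the counts were seen.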

Additional observations from a re-analysis of the deposited data

How the results depend on the processing

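The share of tagged cells depended on the minimum in the tumour libraries. In AT3-gcsf it was 1.96% at a minimum of 3 UMIs, 0.0689% at 10 and at 100, 0.0699% after thinning and 0.0787% where the 4 genes made 0.2% of UMIs. In AT3 it was 0.657% at 3, 0.0657% at 10, 0.0136% after thinning, and 0.0131% at 0.2% of UMIs and at 100. In naive it stayed between 0.0678% and 0.122% under these and a 95% tag minimum. The minimum of 100 and the sum over cells with 5 to 10 UMIs alone were added after seeing the data.

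Genes higher in the AT3-gcsf cells (1636) numbered 2777 at a minimum of 10 or 100, 860 with TMM, 913 at 50 CPM and 138 in cells with 5 to 10 UMIs. Genes lower (474) numbered 1074, 1639, 325 and 176 in the same order, and 99 against remaining cells rich in Camp, Ltf and Ngp. Of 91 named genes, 38 values changed sign. In cells with 5 to 10 UMIs these were Prss34 -0.02, Mcpt8 -0.04, Dut -0.17, Igfbp4 -0.49, Cd34 -0.75, Lmo2 -0.74, Gfi1 -0.02, Mcm3 -0.08, Ncl -0.58, Impdh2 -0.10, Umps -0.57, Bst2 -0.44 and Cpa3 -0.01. Without cells holding other-lineage markers they were Prss34 -0.02, Ccr2 -0.73, Ms4a6c -0.04, Ly86 -0.17 and Cpa3 -0.01. At a minimum of 10 or 100 they were Ngp -0.26, Ltf -1.46 and Chil3 -0.12. Against remaining cells rich in secondary granule transcripts they were Scgb1a1 0.43, Saa3 0.91, Sftpc 0.22, Kit 1.24, Camp -1.47, Ngp -1.53, Cybb -0.96, Ltf -2.02, Dusp1 0.26, Il1b 0.90, Oasl2 0.02, Rtp4 0.22, Csf3r 0.45 and Chil3 -0.69. The first 3 of these settings change which cells are summed; the cause was not otherwise tested.

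No paired analysis was possible because each condition is 1 library. The planned comparison of conditions gene by gene was not run, since 18 AT3 and 8 naive cells are under the 20 set for it.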
